A study of Homo sapiens with 6 samples.

Results

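Ribosome biogenesis factors are the nucleolar and nuclear proteins that modify, cut and fold ribosomal RNA and load it with ribosomal proteins. They were examined here in OE19 cells, a line derived from an oesophageal adenocarcinoma, after inhibition of the microRNA miR-451a. Members were chosen by gene symbol and not by their values: the NOP, UTP, RRP and NOL series, NOC, LTV, NOB, TSR, BMS and IMP genes, RRS1, and NCL, NPM1, FBL, DKC1, GAR1, NHP2, BOP1, PES1, WDR12, EBNA1BP2, NOLC1 and BYSL. The rule found 57 of the 13345 genes in the table, and all 57 had a mean normalized value of at least 10 and were tested. The 3 inhibitor samples had been transfected with the miRCURY LNA Power microRNA inhibitor of miR-451a, a locked nucleic acid oligonucleotide. The 3 negative control samples had received Negative Control A of the same chemistry. Samples with the same number came from the same independent experiment. All 6 samples were of 1 cell line, and irradiation of the cells taken for sequencing is not described in the sources.

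Ribosomal RNA is made as a long precursor by RNA polymerase I in the nucleolus. Small nucleolar ribonucleoproteins (snoRNPs) guide its chemical modification, the small-subunit processome folds and cleaves the end that becomes the small subunit, and a separate set of factors builds the large subunit around the rest. The output of this pathway follows growth, and many of its genes carry an E-box (CACGTG), the DNA word that is bound by the MYC family of transcription factors. An enlarged nucleolus is a long-known feature of rapidly growing tumour cells.

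Values are the authors' gene counts after adjustment for GC content and length and scaling between samples, without a unit. The whole numbers behind them summed to between 14727831 and 15473697 in the inhibitor samples and between 14084387 and 18726440 in the negative control samples. Among the members, these numbers ran from 84 (UTP15) to 36916 (NCL), and since they are adjusted they give no bound on the counting error. Inhibitor sample 3 stood apart over all genes. Among 11095 genes averaging 50 or more, 12.5% departed there by more than 2-fold from the median over the other 5 samples, against 0.676% to 1.52% in the other inhibitor samples and 0.586% to 1.97% in the negative control samples. All 7 epithelial markers were in the table, and their summed values ran between 156502 and 224701 with the inhibitor and between 144943 and 209920 with the negative control. Of 7 mesenchymal markers 3 were present (sums between 390.2 and 465.5 with the inhibitor and between 420.1 and 440.3 with the negative control). In RNA of a whole culture, fewer cells of a kind and less RNA per cell cannot be told apart.

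No ribosome biogenesis gene differed between inhibitor and negative control cells beyond the spread between samples. In the limma fit across 12723 genes, 0 of the 57 members passed an adjusted p of 0.05, as did 0.0% of all genes, and the smallest adjusted p of a member was 0.899. Before adjustment, 0 members had a p below 0.05, against 0.935% of all genes (119). The count tests edgeR and DESeq2, run on the recovered whole numbers, gave 0 members before and after adjustment. In no member did the 3 inhibitor values all lie above or all below the 3 negative control values. Over all genes 2.71% lay wholly above and 2.9% wholly below. Differences are the mean of log2(value + 1) over the inhibitor samples minus the mean of log2(value + 1) over the negative control samples, so that a difference can have another sign than that between the plain means. They were small: 55 of the 57 members were within 0.25 of 0 on the log2 scale, and 55 had a 95% interval that stayed inside 1 log2 unit either way. The median difference of the members was -0.05, with 21 members above 0, beside a median of -0.00 over all genes, of which 49.4% were above 0. Without inhibitor sample 3 the median was 0.09 and 46 members were above 0, whereas without inhibitor sample 1 it was -0.14 and 8 were.

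**Figure D1:**
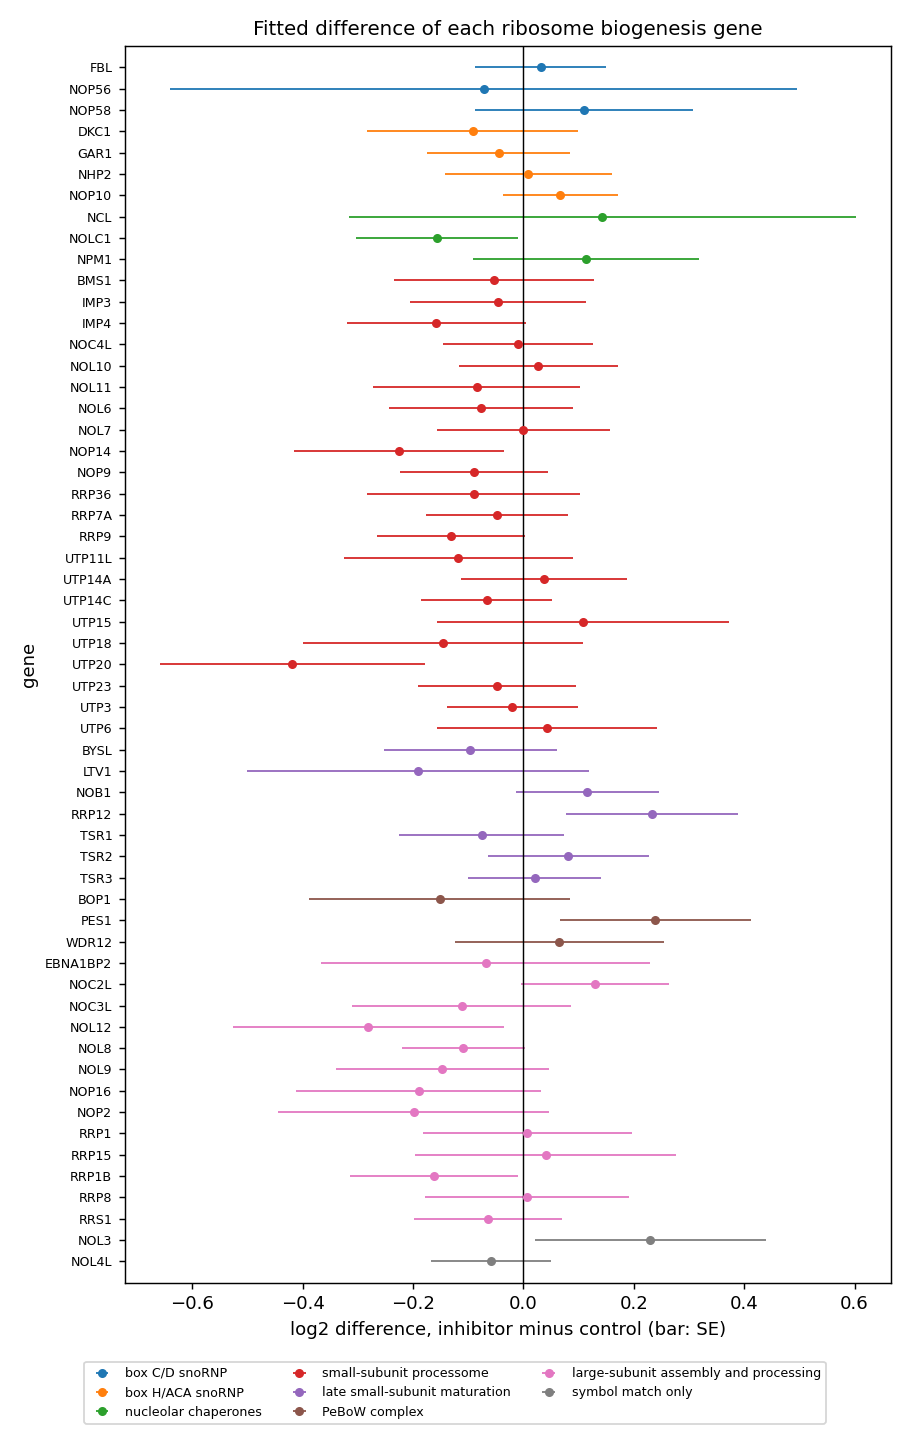
Fitted log2 difference of each of the 57 genes, inhibitor minus negative control, with bars of 1 SE, coloured by role. UTP20 lies farthest left at -0.42 and PES1 farthest right at 0.24, and NOP56 and NCL have the widest bars.

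Within the inhibitor group, samples 1 and 3 departed from the controls in opposite directions for most members. Inhibitor sample 3 was the lowest of the 6 samples in 44 of the 57 members, or 77.2%, against 35.7% of all genes. Inhibitor sample 1 was the highest in 33 members, or 57.9%, against 20.2% of all genes. In 27 members both held at once, compared with 10.2% of all genes. Set against the negative control mean on the log2 scale, the members had a median of 0.13 for inhibitor sample 1, 0.02 for sample 2 and -0.32 for sample 3. It was 0.03, 0.04 and -0.06 in negative control samples 1, 2 and 3. The corresponding medians of all genes lay between -0.00 and 0.01. Rescaling by TMM kept the count of 44 for inhibitor sample 3 and gave 31 in place of 33 for inhibitor sample 1. Its factors lay between -0.006 and 0.007 on the log2 scale, so it could move these counts only slightly. Since inhibitor sample 3 also stood apart over all genes, the part of that library in the low values of the members was not tested.

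**Figure D2:**
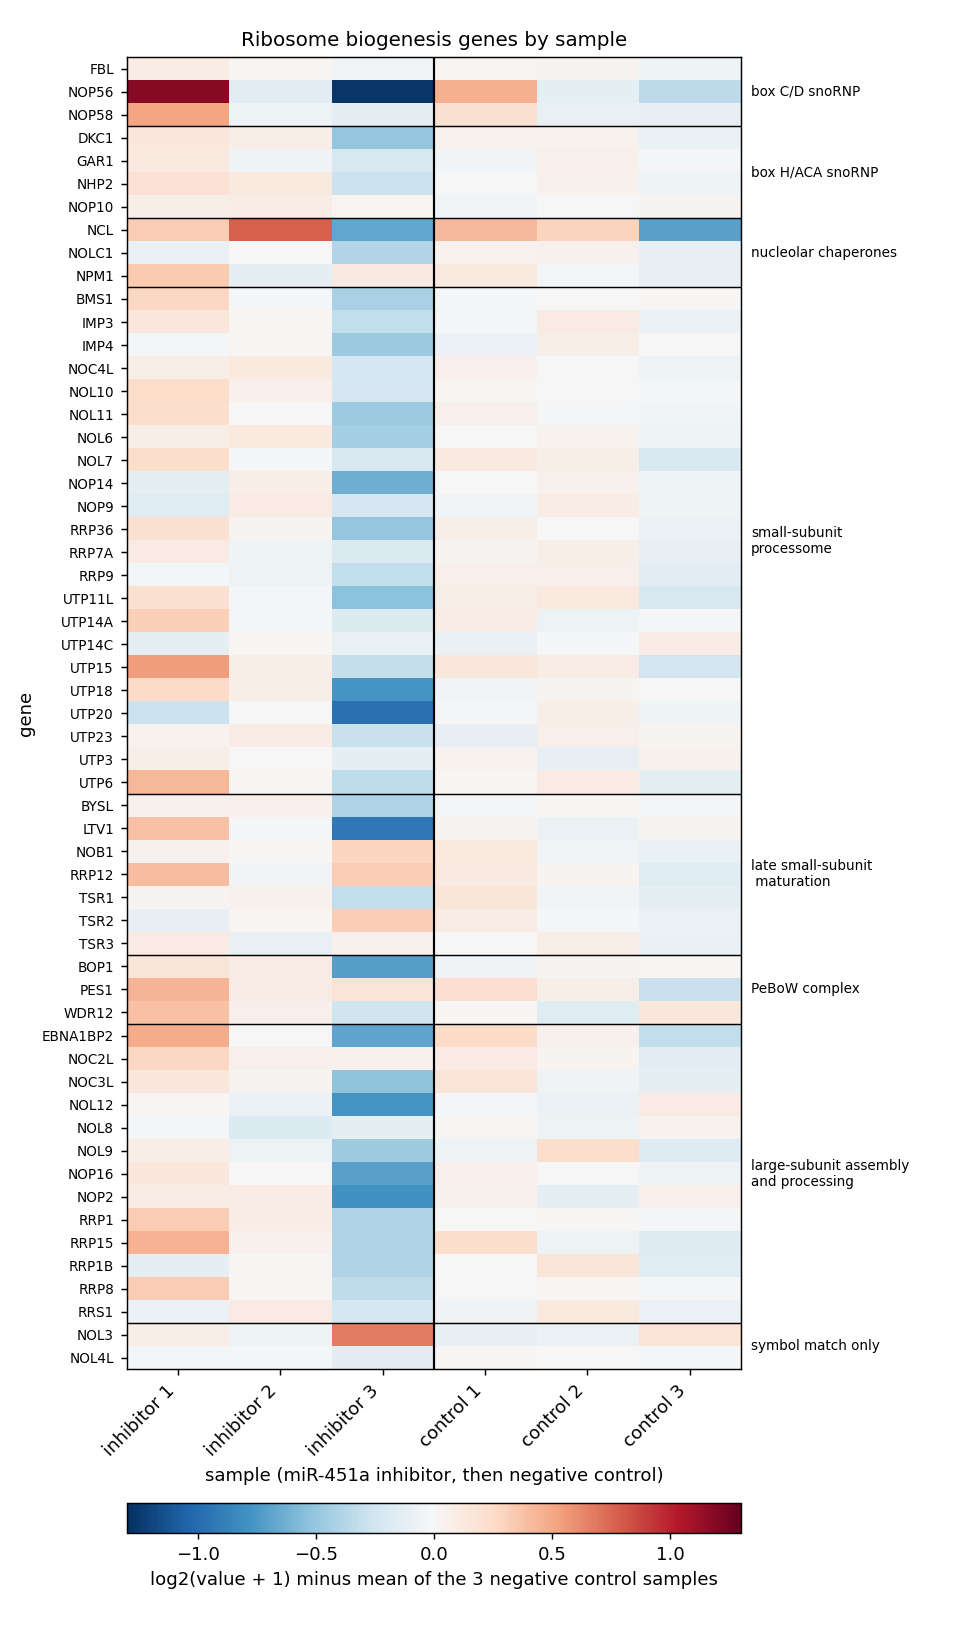
Log2(value + 1) of the 57 genes in each sample, minus the mean of the 3 negative control samples, with genes in rows grouped by role. The column of inhibitor sample 3 is mostly blue (48 of 57 genes below the control mean), that of inhibitor sample 1 mostly red (45 of 57 above it), and that of inhibitor sample 2 mostly pale (55 of 57 within 0.15).

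The SD of the log2 values had a median over the members of 0.27 among inhibitor samples and 0.09 among negative control samples, and it was larger among inhibitor samples in 53 of the 57 members. Over all genes the medians were 0.31 (inhibitor) and 0.15 (negative control), and 78.2% had the larger SD among inhibitor samples. Between inhibitor samples 1 and 2 alone the median SD was 0.12 for the members and 0.16 for all genes. An SD of 2 samples is not directly comparable with an SD of 3. The SD without inhibitor sample 1 or 2 was not computed, so the share of inhibitor sample 3 in the spread was not tested. Taken by experiment, 42 members were higher with the inhibitor in experiment 1, 33 in experiment 2 and 10 in experiment 3, beside 51.1%, 49.2% and 49.7% of all genes. PES1, NOC2L and NOL3 were higher in all 3 experiments. UTP20, NOLC1, RRP9, RRP1B, RRS1, NOL8 and NOL4L were lower in all 3. These are 5.26% and 12.3% of the members, against 12.2% of all genes in each direction.

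The box C/D snoRNP, which places ribose methyl groups on ribosomal RNA, was described by 3 members. NOP56 (ENSG00000101361.14; GRCh38 chromosome 20, 2652632 to 2658393), a scaffold protein of the particle, had the largest SE of the 57 genes on the log2 scale. Its values were 15719, 6306 and 2871 in inhibitor samples 1, 2 and 3, against 9515, 6374 and 5445 in negative control samples 1, 2 and 3. The inhibitor samples thus enclosed the controls, at 2.21 times the control mean in sample 1 and 0.404 times in sample 3. The log2 difference was -0.07 ± 0.57 (SE; 95% interval -1.40 to 1.26; limma adjusted p 0.978). Its partner NOP58 (chromosome 2, 202265763 to 202303661) had values of 3201, 2145 and 2064 in the inhibitor samples, against 2572, 2102 and 2085 in the negative control samples. Its value in inhibitor sample 1 lay well above the controls and that in sample 3 just below them, and the log2 difference was 0.11 ± 0.20. FBL, which encodes fibrillarin, the methyltransferase itself, was the most even of the 3. It averaged 3258 ± 145 in inhibitor cells and 3187 ± 108 in negative control cells (SD, n = 3 each).

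The box H/ACA snoRNP converts uridines to pseudouridine and also stabilises telomerase RNA. All 4 of its proteins were in the table. DKC1 encodes dyskerin, the pseudouridine synthase, and had values of 3950, 3813 and 2543 in the inhibitor samples, against 3703, 3703 and 3380 in the negative control samples. Inhibitor sample 3 was below every control and the other inhibitor samples were above them, for a log2 difference of -0.09 ± 0.19. The RNA-binding protein genes NHP2 and GAR1 were also lowest in inhibitor sample 3. NHP2 averaged 894.0 ± 149.1 in inhibitor cells and 880.3 ± 35.0 in negative control cells, and GAR1 822.1 ± 96.9 and 844.5 ± 33.8 (SD, n = 3 each). NOP10, the smallest protein of the particle, was nearly constant, with values of 1204, 1222 and 1167 in the inhibitor samples and 1113, 1146 and 1170 in the negative control samples. Its log2 difference of 0.07 had the narrowest interval of the 57 genes, from -0.18 to 0.31.

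Nucleolin (NCL), nucleophosmin (NPM1) and NOLC1 are abundant nucleolar proteins that act as chaperones of ribonucleoprotein and histone assembly. NCL (ENSG00000115053.15; chromosome 2, 231453531 to 231464484) had values of 27549, 37359 and 13650 in the inhibitor samples, against 29280, 26639 and 13364 in the negative control samples. Both samples of experiment 3 were at about the same low level, and inhibitor sample 2 was the highest. The log2 difference was 0.14 ± 0.46 (SE; limma adjusted p 0.95). NPM1 (chromosome 5, 171387116 to 171410900) averaged 15694 ± 2519 in inhibitor cells and 14417 ± 1231 in negative control cells (SD, n = 3 each). Inhibitor sample 3 was within the range of the controls at 15644, unlike that of most members. The genome holds processed copies of NPM1, and whether reads were shared with them was not tested. NOLC1, a phosphoprotein that binds snoRNPs, had values of 3185, 3402 and 2597 in the inhibitor samples, against 3504, 3527 and 3157 in the negative control samples, and a log2 difference of -0.16 ± 0.15. The size of a difference may be set in part by ranks, in steps that were wider at NCL than at genes with lower values. Within a sample, the 15 highest genes shared a value, and values stepped down after every 15 ranks over the 60 blocks examined. Sharing inside the lower blocks was not counted, but it occurred among the members. NOP9 and NOP16 both had 827.8 in inhibitor sample 2 and 822.4 in negative control sample 2. Counted in blocks of 15 ranks, NCL was in block 3 or 4 in samples of experiments 1 and 2. In experiment 3 it was in block 10 (inhibitor) and block 8 (negative control). A step between neighbouring blocks changed the value by up to 1.46-fold at NCL in inhibitor sample 1, but by at most 1.01-fold at UTP20.

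**Figure D3:**
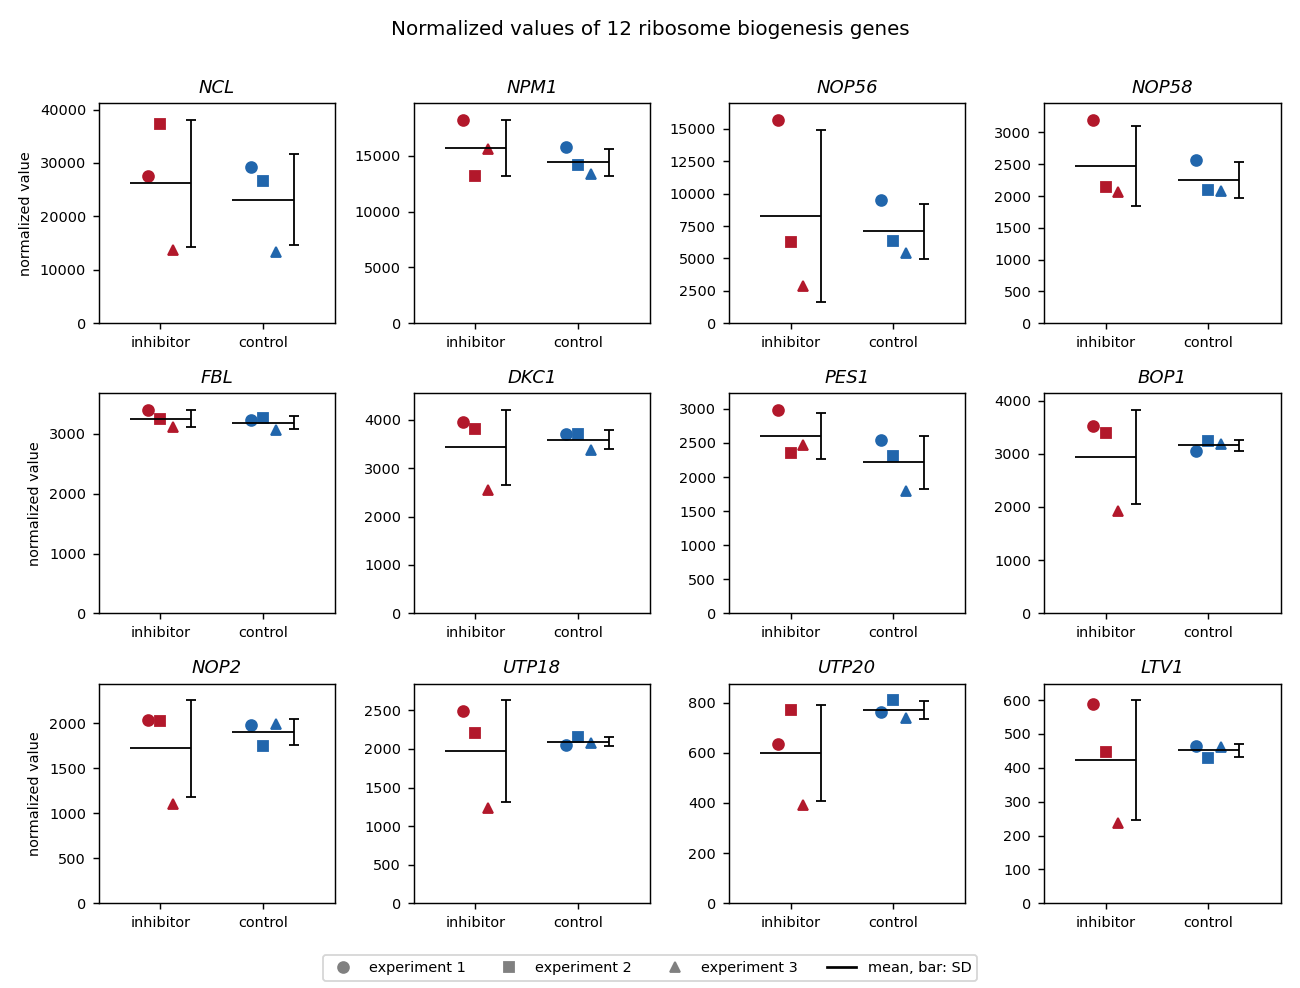
Normalized values of selected members, with inhibitor samples in red left of negative control samples in blue, a line at each group mean and a bar of 1 SD (n = 3 each); the markers show the experiment. The red triangle (inhibitor sample 3) lies below all blue markers for NOP56, NOP58, DKC1, BOP1, NOP2, UTP18, UTP20 and LTV1, but not for NCL, NPM1, FBL and PES1.

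The small-subunit processome is the large particle that assembles on the nascent precursor around the guide RNA of its first cleavages. Of the 22 members that the symbol rule took from it, 21 were lowest in inhibitor sample 3. All 22 were below the control mean there, with a median of -0.32 on the log2 scale. The list of small-subunit factors outside the rule, described further below, was less uniform. Of its 34 tested genes 16 were lowest there, and their median was -0.10. UTP20 (ENSG00000120800.4; chromosome 12, 101280105 to 101386618), a very large helical-repeat scaffold, had the largest difference of all members. It had values of 632.8, 769.1 and 392.3 in the inhibitor samples, against 763.1, 810.7 and 739.0 in the negative control samples. Inhibitor sample 2 lay within the range of the controls, so the groups overlapped, and the log2 difference was -0.42 ± 0.24 (SE; 95% interval -0.98 to 0.14; limma adjusted p 0.899). NOP14, a scaffold of the same particle, had values of 1173, 1355 and 822 in the inhibitor samples, against 1281, 1329 and 1228 in the negative control samples (log2 difference -0.23 ± 0.19). UTP18, a beta-propeller subunit, showed the wider pattern more fully, with 2489, 2211 and 1234 in the inhibitor samples and 2050, 2155 and 2084 in the negative control samples.

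The GTPase gene BMS1 had 0.748 times the control mean in inhibitor sample 3. The genes of its neighbours in the U3 snoRNP, RRP9, IMP3 and IMP4, had 0.799, 0.801 and 0.714 times. UTP14C, UTP3 and UTP14A were closest to the controls at 0.935, 0.915 and 0.886 times. In inhibitor sample 1, UTP15 and UTP6 were at 1.45 and 1.34 times the control mean, whereas UTP20 was at 0.821 times. UTP14C was the only member of the group whose lowest value was elsewhere, in inhibitor sample 1, and as an intronless copy of UTP14A it may share reads with that gene. The log2 differences of the other 20 members, beyond UTP20 and NOP14, ran from -0.16 (IMP4) to 0.11 (UTP15).

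Late maturation of the small subunit runs through the cytoplasm, where the last spacer is cut off. In inhibitor sample 3 these 7 members lay between -0.93 and 0.33 on the log2 scale, with a median of 0.05. LTV1, an assembly factor that leaves the particle late, was at 0.523 times the control mean there. It had values of 588.5, 446.3 and 236.6 in the inhibitor samples, against 465.2, 430.4 and 462.0 in the negative control samples, and a log2 difference of -0.19 ± 0.31. RRP12, a helical-repeat protein of subunit export, went the other way. It had 1028, 758.0 and 974.6 in the inhibitor samples, against 839.4, 797.9 and 697.7 in the negative control samples, a log2 difference of 0.23 ± 0.16 with a limma adjusted p of 0.899. NOB1, the endonuclease that makes the final cut of the small-subunit RNA, was at 1.21 times the control mean in inhibitor sample 3, and TSR2, the chaperone of a ribosomal protein of that subunit, was at 1.25 times. BYSL and TSR1 were at 0.757 and 0.799 times, and the modifying enzyme gene TSR3 at 1.04 times.

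The large subunit was represented by the PeBoW complex and 13 further factors. PeBoW joins the proteins of PES1, BOP1 and WDR12 and is needed to mature the large-subunit RNAs. Although their proteins act as a unit, the 3 messages did not keep together in inhibitor sample 3. PES1 (ENSG00000100029.17; chromosome 22, 30576625 to 30607013) had values of 2988, 2348 and 2475 in the inhibitor samples, against 2545, 2315 and 1791 in the negative control samples. It was higher with the inhibitor in all 3 experiments, although the groups overlapped, and its log2 difference was 0.24 ± 0.17 (SE; 95% interval -0.17 to 0.65). BOP1 had values of 3520, 3380 and 1920 in the inhibitor samples, against 3049, 3233 and 3182 in the negative control samples, and a log2 difference of -0.15 ± 0.24. WDR12 averaged 529.6 ± 117.3 in inhibitor cells and 499.8 ± 52.8 in negative control cells (SD, n = 3 each).

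Of the 13 other large-subunit factors, 11 were lowest in inhibitor sample 3, where their median was -0.40 on the log2 scale. NOL12, which encodes an RNA-binding protein related to a yeast exonuclease of the pathway, had values of 164.1, 153.8 and 94.5 in the inhibitor samples, against 160.0, 153.8 and 174.7 in the negative control samples. NOP2, an RNA methyltransferase of the large-subunit RNA that has long served as a marker of proliferating nucleoli, had 2034, 2029 and 1100 in the inhibitor samples, against 1979, 1741 and 1995 in the negative control samples. For both genes, inhibitor samples 1 and 2 lay with the controls or just above them and inhibitor sample 3 lay well below. Their log2 differences were -0.28 ± 0.25 and -0.20 ± 0.25. NOP16 and EBNA1BP2 were at 0.611 and 0.613 times the control mean in inhibitor sample 3. NOC2L, which also acts as a repressor of transcription, was at 1.03 times and was the only member of this set above the control mean there. NOL8 was lowest in inhibitor sample 2. The log2 differences of the 11 members other than NOL12 and NOP2 ran from -0.19 (NOP16) to 0.13 (NOC2L).

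**Figure D4:**
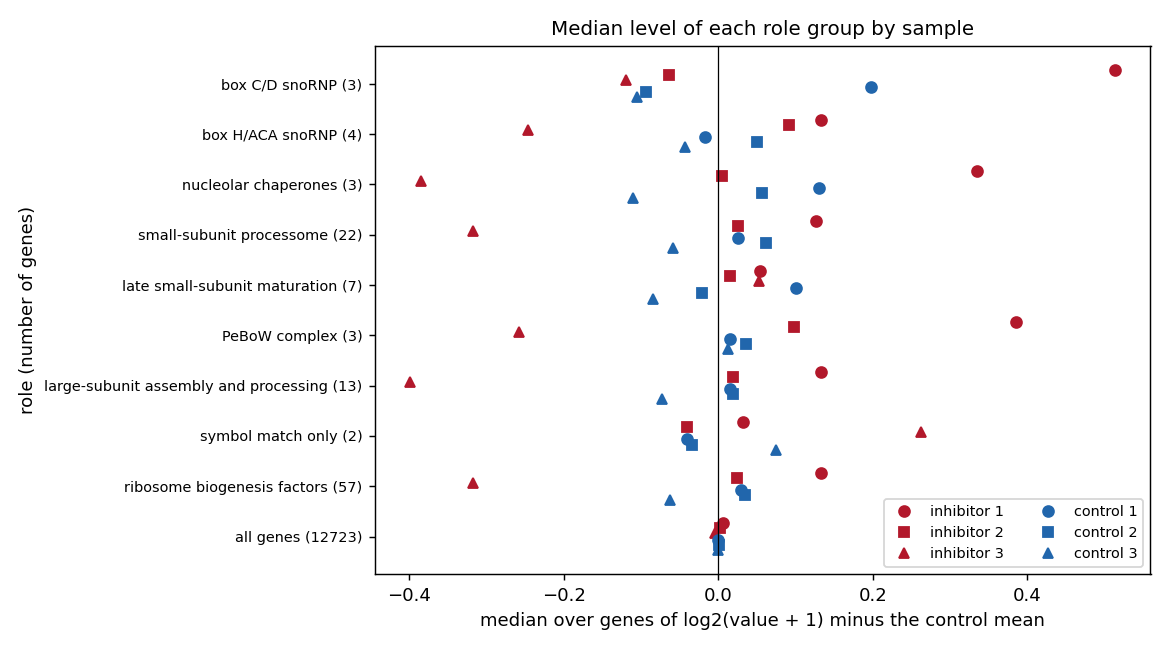
Median over the genes of each role of log2(value + 1) minus the control mean, in each inhibitor sample (red) and negative control sample (blue), with all members and all 12723 tested genes in the bottom rows. Inhibitor sample 3 lies lowest in every role group except late small-subunit maturation (0.05) and the symbol matches (0.26), and the samples coincide near 0 for all genes.

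A pair of genes matched the rule by symbol only. NOL3 encodes an inhibitor of apoptosis in the cytoplasm and has no established part in ribosome assembly. It had values of 408.8, 369.4 and 609.2 in the inhibitor samples, against 358.6, 365.3 and 435.1 in the negative control samples. Its value in inhibitor sample 3 was 1.58 times the control mean, the highest ratio of the 57 genes there. NOL4L averaged 818.9 ± 36.9 in inhibitor cells and 852.9 ± 14.2 in negative control cells (SD, n = 3 each).

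Genes of the pathway that the symbol rule did not take were read from lists drawn up by function. Of their 106 tested genes 0 passed the limma test, adjusted or not, beside 0.0% (adjusted) and 0.935% (unadjusted) of all genes. All 15 genes of RNA polymerase I transcription were tested, 8 higher and 7 lower with the inhibitor, with a median log2 difference of 0.02. ZNRD1, a small polymerase subunit, was farthest from 0. It had values of 211.6, 142.7 and 276.1 in the inhibitor samples, against 151.8, 133.5 and 135.4 in the negative control samples, for a log2 difference of 0.53 ± 0.26. Of 36 further small-subunit factors listed, 34 were tested and 21 were higher, and the kinase gene RIOK3 had the largest difference, 0.90 ± 0.59, with 10293 in inhibitor sample 3 and at most 3041 in any other sample. Of 44 further large-subunit factors listed, 42 were tested and 20 were higher, and URB2 was farthest from 0 at -0.42 ± 0.23. Of 16 listed genes of the RNA exosome, which trims the precursors, 15 were tested and 6 were higher, and MPHOSPH6 was farthest from 0 at -0.39 ± 0.47. Inhibitor sample 3 was the lowest sample for 46.7% of the polymerase I genes, 47.1% and 61.9% of the further small- and large-subunit factors and 66.7% of the exosome genes, beside 35.7% of all genes. The 79 ribosomal protein genes had medians of 0.28, -0.02 and 0.30 in inhibitor samples 1, 2 and 3 and 0.07, -0.04 and -0.04 in the negative control samples. Of these genes 72 were higher with the inhibitor, with a median log2 difference of 0.18, and 0 passed the limma test after adjustment and 1 had an unadjusted p below 0.05. In inhibitor sample 3 the median of the messages for ribosomal proteins was thus above the control mean and that of the assembly factors below it, and this difference was not tested.

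The promoters of the members were then searched for the E-box. RefSeq promoter sequences of GRCh38, from 250 bases before to 50 bases after the gene start, were matched for 49 of the 57 members. The word CACGTG, which reads the same on both strands, occurred in 19 of the 49, or 38.8%, compared with 10.1% of 9724 promoters of tested genes and 7.43% of all 27305 promoters. The word GGGCGG was searched on both strands for comparison and was found in 69.4% of the member promoters and 69.6% of those of tested genes. The stretches around the E-box upstream of the start are shown for members that were low in inhibitor sample 3 (UTP20, UTP18 and EBNA1BP2) and for members that were not (NOP10 and TSR3). A CACGTG is in capitals in each stretch, and the TSR3 stretch also holds a further copy in lower case.
UTP20: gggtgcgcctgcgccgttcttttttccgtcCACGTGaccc
UTP18: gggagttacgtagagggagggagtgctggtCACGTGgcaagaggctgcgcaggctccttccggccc
EBNA1BP2: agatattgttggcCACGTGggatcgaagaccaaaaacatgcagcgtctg
NOP10: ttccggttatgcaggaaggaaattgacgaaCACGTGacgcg
TSR3: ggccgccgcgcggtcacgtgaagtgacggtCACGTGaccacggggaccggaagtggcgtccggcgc

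These lie at chr12:101280065-101280104 (UTP20, plus strand), chr17:51260427-51260492 (UTP18, plus strand), chr1:43172772-43172820 (EBNA1BP2, minus strand), chr15:34343137-34343177 (NOP10, minus strand) and chr16:1351889-1351954 (TSR3, minus strand), in the promoters next to the first exons. The capitals begin 10, 89, 237, 11 and 46 bases before the start of these genes, with further copies 62 bases before the start of TSR3, 170 bases before that of NOP10 and at position 5 of the UTP18 gene. Members with and without the E-box overlapped in their level in inhibitor sample 3, and a difference between them was not tested. The 19 members with the E-box had a median of -0.40 on the log2 scale there (range -0.97 to 0.33). The 30 without it had -0.32 (range -1.27 to 0.66). Inhibitor sample 3 was the lowest sample in 68.4% of the members with the word and 80% of those without. A match of letters does not show that a factor was bound in these cells.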

How the data were processed

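Messenger RNA of 6 OE19 samples was read from 1 table, with groups and experiments as the titles give them. The study's methods and the submitters' processing notes name cutadapt 1.8 for trimming, FastQC 0.11.8 for read quality and STAR 2.7.0f for alignment (GRCh38). The authors corrected counts within samples for GC and gene length (EDASeq) and between samples for depth (DESeq2). How reads were counted is not given in the sources used here. Values as deposited are a normalized signal. Divided by the smallest value above 0, 100% of the values in each sample came out whole within 1e-06; these are adjusted counts, not reads.

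Genes averaging 10 or more entered a limma 3.58.1 fit of log2(value + 1) in R 4.3.3 (eBayes with trend, two-sided, Benjamini-Hochberg over all genes, threshold 0.05). Alternatives were another pseudocount, other filters, TMM, sample weights, a replicate block, each sample left out, and edgeR 4.0.16 and DESeq2 1.42.0 on the whole numbers. The fit was tested on simulated data. The experiment number, shared in titles and headers, was read as a pairing, and same-numbered samples had correlations of their deviations from the group means of 0.207, 0.154 and -0.004 across genes.

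The members, roles and lists were chosen with earlier results of these data known. Named by rule were the core snoRNP, chaperone and PeBoW genes, the 2 members of each other role with the largest difference among those averaging 50 or more, any member that passed or whose groups did not overlap, and any that departed by more than 2-fold in a sample from the median over the rest. Others were named after their values were seen. Promoters were taken from RefSeq (GRCh38.p14), and symbols were matched for all 57 members. A further marker list is not reported here.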

Additional observations from a re-analysis of the deposited data

How the results depend on the processing

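No gene and no member passed after adjustment under any of the 14 alternatives. At an unadjusted p below 0.05 there were 76 to 315 genes over the settings that kept all samples, and 43 to 1360 with 1 sample left out, the most without inhibitor sample 2. Members at that level numbered 0, except 2 without inhibitor sample 2. The replicate block left the median of the members at -0.053 and changed no call; the smallest adjusted p of a member was then 0.848. The median lay between -0.06 and 0.06 over the settings that kept all samples (0.062 with sample weights, with 39 members above 0) and between -0.144 and 0.092 with 1 sample left out. Directions that turned belonged to members that had not passed. With sample weights NOP56, DKC1, BOP1, NOP2 and LTV1 had log2 differences of 0.496, 0.047, 0.062, 0.10 and 0.161, and NOP56 had 0.216 with edgeR and 0.223 with DESeq2. With 1 sample left out, the differences ran from -0.001 to 0.063 for FBL, -0.70 to 0.526 for NOP56, -0.091 to 0.225 for NOP58, -0.206 to 0.112 for DKC1, -0.131 to 0.038 for GAR1, -0.079 to 0.154 for NHP2, -0.211 to 0.554 for NCL, -0.001 to 0.232 for NPM1, -0.308 to 0.129 for BOP1, -0.095 to 0.227 for WDR12, -0.348 to 0.095 for NOP2 and -0.475 to 0.18 for LTV1. The cause was not tested. With 3 samples a group, the 95% interval of a member reached between 0.246 and 1.33 log2 units to either side.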
